A study of Mus musculus with 4 samples.

Results

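The LIM-domain muscle genes described here are 10 genes of 3 families, Fhl1, Fhl2 and Fhl3, Csrp1, Csrp2 and Csrp3, and Pdlim1, Pdlim3, Pdlim5 and Pdlim7. They were chosen by name, and each matched 1 row of the 29595 rows of the deposited read table. RNA was sequenced from the right ventricle of 4 adult mice of a mixed C57BL/6 background. Of these, 2 hearts came from animals labelled as Ezh2-deficient (mutant 1 and mutant 3) and 2 from wild-type animals (wild type 1 and wild type 2). Ezh2 is the histone H3 methyltransferase of the Polycomb complex PRC2 and keeps genes repressed. The labels name neither the Ezh2 allele, nor a Cre driver, nor the age beyond adult, nor the sex.

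A LIM domain is a small zinc-binding fold that holds proteins together rather than binding DNA or catalysing a reaction. Fhl proteins consist almost wholly of LIM domains, Csrp proteins carry a pair of them separated by glycine-rich stretches, and Pdlim proteins join a PDZ domain, which binds α-actinin, to LIM domains that bind kinases. In striated muscle several of them sit at the Z-disc and at titin, where they link stretch to signalling, and some also enter the nucleus as cofactors of transcription factors such as Srf. Mutations of FHL1, CSRP3 and PDLIM3 have been linked to human myopathy or cardiomyopathy.

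The libraries held 18177642 to 23853394 reads, of which 34.7% to 47.3% came from the mitochondrial genome. Heart muscle markers were present, with 8 of 8 cardiomyocyte genes read in all 4 libraries, which does not tell the right ventricle from other chambers. Myh6, the main adult myosin heavy chain, stood at 10780 to 15579 CPM (reads of a row over the library's total on the usual CPM scale, corrected by TMM). Reads of Ezh2 numbered 73 and 70 in the Ezh2-deficient hearts, against 77 and 67 in the others, so its row does not check the labels, and the labels do not give which part of the gene was removed. Sex went with genotype: reads of the Y-linked gene Ddx3y numbered 754 and 659 in the Ezh2-deficient hearts, against 2 and 2 in the others. Differences by genotype and by sex therefore cannot be told apart in any comparison below. Fast skeletal muscle markers stood apart in mutant 1, with the summed level of 8 markers at 270 CPM there, 40.1 CPM in mutant 3, and 19.1 and 18.8 CPM in wild type 1 and wild type 2. Without Myh4 the other 7 summed to 225 CPM in mutant 1, 6.90 CPM in mutant 3, and 9.08 and 6.84 CPM in the wild types. Of 5 atrial markers tested, 1 was called at an adjusted p under 0.05 in edgeR (Nppa), 3 including it were higher and 0 lower by an unadjusted p of 0.05, and the median log2 fold change was 2.03. Without Nppa the other 5 atrial markers in the table summed to 146 and 118 CPM in the mutants, against 61.7 CPM in wild type 1 and 11.6 CPM in wild type 2, and Bmp10 was at 0 reads in at least 1 library. The part of atrial or skeletal muscle RNA in the values of the 10 genes was not tested. The libraries were treated with a duplex-specific nuclease, which lowers the share of abundant transcripts, so differences of abundant genes may be compressed.

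Start-site sequences are shown first for Fhl1, Fhl2 and Pdlim7, because Fhl1 and Pdlim7 had the lowest p-values of the 10 genes and Fhl2 differed from Fhl1 in direction. Each window runs from 250 bases before to 50 after a RefSeq start, on build GRCm38.p6, 5′ to 3′ on the gene's strand. Capitals mark matches, on either strand, to the CArG box (bound by Srf), the MEF2 box, the MCAT motif CATTCC (bound by Tead factors) and the motif TATAAA. The Fhl1 window shown is at chrX:56779433-56779732 on the plus strand. The other Fhl1 window, at chrX:56786277-56786576, held no match to these motifs and is not shown. The Fhl2 windows are at chr1:43163912-43164211 and chr1:43196712-43197011 on the minus strand. The Pdlim7 window is at chr13:55513397-55513696 on the minus strand.
Fhl1: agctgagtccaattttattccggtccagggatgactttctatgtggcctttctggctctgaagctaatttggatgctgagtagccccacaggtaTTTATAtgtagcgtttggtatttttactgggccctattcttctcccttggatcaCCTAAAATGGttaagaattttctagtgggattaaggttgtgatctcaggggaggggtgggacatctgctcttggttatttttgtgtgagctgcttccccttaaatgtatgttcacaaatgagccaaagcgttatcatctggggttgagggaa
Fhl2 first window: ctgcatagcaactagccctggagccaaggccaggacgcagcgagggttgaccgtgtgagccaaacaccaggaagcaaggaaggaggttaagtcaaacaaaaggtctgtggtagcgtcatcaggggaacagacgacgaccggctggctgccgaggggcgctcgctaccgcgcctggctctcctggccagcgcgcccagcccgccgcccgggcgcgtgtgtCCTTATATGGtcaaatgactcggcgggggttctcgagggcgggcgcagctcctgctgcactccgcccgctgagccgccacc
Fhl2 second window: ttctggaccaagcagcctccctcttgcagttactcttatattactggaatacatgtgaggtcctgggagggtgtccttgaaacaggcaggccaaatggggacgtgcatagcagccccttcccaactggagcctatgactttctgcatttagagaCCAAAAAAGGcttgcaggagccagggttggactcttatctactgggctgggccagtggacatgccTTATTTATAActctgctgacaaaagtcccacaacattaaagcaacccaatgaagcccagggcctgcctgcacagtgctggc
Pdlim7: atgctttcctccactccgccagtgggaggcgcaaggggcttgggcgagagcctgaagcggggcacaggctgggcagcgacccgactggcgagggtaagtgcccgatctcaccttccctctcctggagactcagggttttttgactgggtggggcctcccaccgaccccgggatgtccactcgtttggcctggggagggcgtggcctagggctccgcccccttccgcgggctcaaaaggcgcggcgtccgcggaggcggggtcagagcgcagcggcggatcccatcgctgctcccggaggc

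In all, 9 of the 10 genes had a window, 14 windows in total, and none was found for Csrp2. A CArG box was found in the Fhl1 window shown and in both Fhl2 windows, and in 0 of the other 11 windows of members, against 1.63% of all 32851 windows. The box began 102 bases before the start in Fhl1, and 31 and 96 bases before it in the first and second Fhl2 window. A MEF2 box was found in the second Fhl2 window, where it overlaps a TATAAA match, against 3.19% of all windows. The MCAT motif occurred in the Pdlim3 window at 2 places, against 14.7% of all windows with at least 1 match. The windows also differed in CpG dinucleotides, with 3 in each of both Fhl1 windows, 27 and 1 in the first and second Fhl2 window, 26 in the Pdlim7 window and a median of 7 over all windows. A match describes letters in the window and shows neither a binding site nor a cause. The read table holds 1 row per gene and does not separate transcripts by start.

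None of the 10 genes passed the test over the whole table, and the 2 of lowest p were Fhl1, about 2.07 times as high in the mutants, and Pdlim7, 1.88 times as high. The other 8 had ratios from 0.787 (Fhl2) to 1.44 (Fhl3), with 95% intervals that spanned 1. All 10 genes passed the filter on low counts, and 0 passed the threshold (an adjusted p of 0.05 by edgeR's quasi-likelihood fit), against 21 of 16128 tested rows (0.13%; 0.105% higher and 0.0248% lower). By an unadjusted p of 0.05 there were 2 of the 10, Fhl1 and Pdlim7, both higher in the mutants, beside 6.49% (higher) and 4.38% (lower) of tested rows. DESeq2 called 1 of the 10, Fhl1, against 1.21% of its tested rows. The median log2 fold change of the 10 genes was 0.32, beside 0.00 over all tested rows. In 7 of the 10 both mutants lay above both wild types and in 2 both lay below, as 22.3% and 22.4% of all tested rows did (44.8% in either direction). Scaled by total reads alone, the counts were 2 above and 3 below, and the share of all tested rows was not computed for that scaling. All p-values are two-sided, and no relabelling of 2 against 2 libraries can give a p below 0.333.

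**Figure D1:**
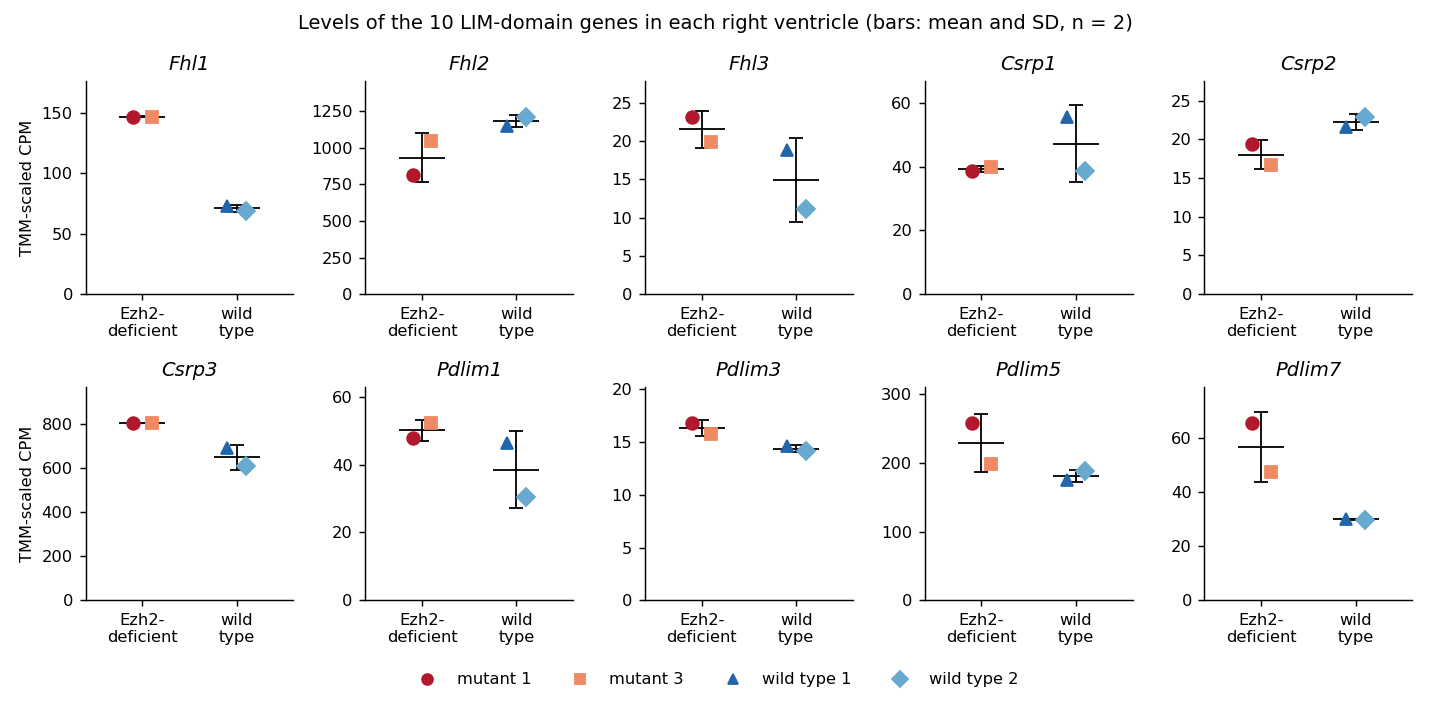
Level of each gene (TMM-scaled CPM, linear axes from 0) in the 4 right ventricles, with red symbols for mutants and blue for wild types, and bars for the group mean and SD (n = 2). Each panel has its own axis. Fhl1 and Pdlim7 show the widest gaps between groups as ratios (2.07 and 1.88), though not in CPM. Csrp1 of mutant 1, mutant 3 and wild type 2 lies between 38.6 and 39.9 CPM, with wild type 1 at 55.7 CPM.

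Fhl1 encodes a titin-binding protein that takes part in the cardiac stretch response through kinase signalling (chromosome X, 53984964 to 54046523, plus strand, mm9). Its reads numbered 3153 and 2897 in mutants 1 and 3, against 1646 and 1372 in wild types 1 and 2. Scaled levels were 147.1 and 146.9 CPM in the mutants, against 73.3 and 69.0 CPM in the wild types. The groups did not overlap, and the libraries within each group lay close together, 1.00-fold apart in the mutants and 1.06-fold in the wild types. The fitted log2 fold change was 1.05 ± 0.20 (SE), or 2.07-fold with a 95% interval of 1.49 to 2.86 that is not adjusted for the number of rows. Its unadjusted p was 0.000947 and its adjusted p in edgeR 0.138, and DESeq2 gave an adjusted p of 0.00425. The adjusted p in edgeR was 0.0210 with no filter on low counts. Fhl1 was called under 4 of 12 alternatives, with adjusted p-values from 0.000426 to 0.537. In the authors' deposited table, whose CPM values are not corrected for composition, the Fhl1 ratio of a mutant to a wild type was 1.77 and 1.92 for mutant 1 and 1.48 and 1.61 for mutant 3.

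Fhl1 is the X-linked gene among the 10, so the X rows were read beside it. Of 512 tested rows on chromosome X, 0 passed the adjusted test, 29 were higher and 29 lower by an unadjusted p of 0.05, and the median log2 fold change was 0.03. A log2 fold change at least as high as that of Fhl1, itself included, was found in 21 of them. Both mutants lay above both wild types in 20.9% of X rows, beside 22.3% of all tested rows. The 10 tested rows nearest to Fhl1 had a median log2 fold change of -0.05 and a range of -0.63 to 1.13. The part of sex in the Fhl1 difference itself cannot be told apart from genotype.

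Fhl2 encodes a LIM protein abundant in heart that binds titin and signalling kinases and restrains hypertrophic signalling in mice (chromosome 1, 43179919 to 43253606, minus strand). Its reads numbered 17382 and 20654 in mutants 1 and 3, against 25835 and 24082 in wild types 1 and 2. Scaled levels were 811 and 1047 CPM against 1150 and 1212 CPM. Both mutants lay below both wild types, with mutant 1 the lowest, but the mutants were also 0.369 apart on the log2 scale, about as far as the groups. Between groups the log2 fold change was -0.35 ± 0.25 (adjusted p = 0.659), with a 95% interval of the ratio from 0.524 to 1.18. It was -0.14 without mutant 1, -0.51 without mutant 3 and -0.65 scaled by total reads alone. On that last scale the median of all tested rows was -0.28, and Fhl2 relative to that median was -0.37. A row named Rpl29chr1+ on the opposite strand lies within the Fhl2 span, with 2258, 2389, 1781 and 1355 reads in mutants 1 and 3 and wild types 1 and 2 in turn. No source used here says whether counting used strand.

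The ratio of Fhl1 to Fhl2 reads within a library does not depend on how libraries are scaled. It was 0.181 and 0.140 in the mutants, against 0.0637 and 0.0570 in the wild types. Fhl1 lay above and Fhl2 below both wild types in both mutants, so the groups could not overlap in this ratio. It is therefore no separate support, and the pair was chosen with earlier results known. The lowest mutant stood 2.20 times above the highest wild type, while libraries of 1 group differed by up to 1.29 times. The ratio of geometric means was 2.65. With 2 libraries a group, an exact permutation test of this ratio cannot go below p = 0.333. Against Csrp3 reads, Fhl1 stood at 0.183 and 0.182 in the mutants, against 0.106 and 0.113 in the wild types, with no overlap. Fhl2 over Csrp3 reads stood at 1.01 and 1.30 against 1.67 and 1.99. There the lack of overlap again followed from the opposite directions of Fhl2 and Csrp3.

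**Figure D2:**
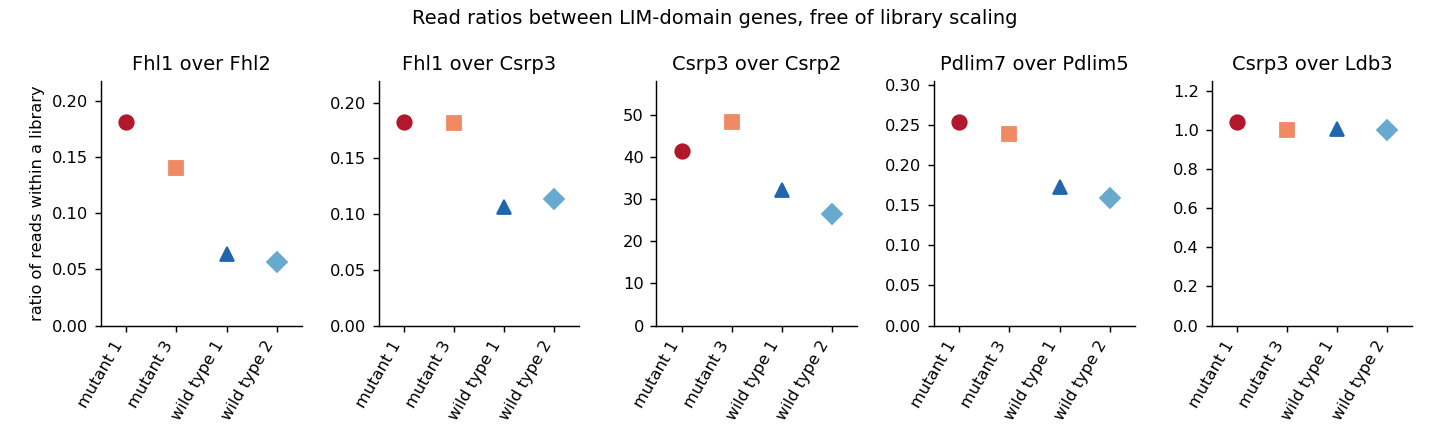
Ratio of the reads of gene pairs within each library (linear axes from 0, 1 point per library, red for mutants and blue for wild types). Fhl1 over Fhl2 separates the groups most widely of the pairs drawn, from 0.140 and 0.181 in the mutants to 0.0570 and 0.0637 in the wild types, and Csrp3 over Ldb3 lies between 0.999 and 1.04 in all 4 libraries.

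Fhl3, the family member best known from skeletal muscle (chromosome 4, 124377954 to 124385855, plus strand), was much less read. Its reads numbered 497 and 391 in mutants 1 and 3, against 423 and 220 in wild types 1 and 2, or 23.2 and 19.8 CPM against 18.8 and 11.1 CPM. The mutants lay above the wild types, but the wild types differed from each other by 1.70 times, more than the group ratio of 1.44. On the log2 scale the difference was 0.52 ± 0.29 (adjusted p = 0.558). It was 0.96 without wild type 1 (adjusted p = 0.00502) and 0.19 without wild type 2 (adjusted p = 0.481; range over its alternatives 0.00502 to 1.00).

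The Csrp family was led by Csrp3, the muscle LIM protein of the Z-disc, with a smaller part for the forms of smooth muscle and other cells. Csrp3 (chromosome 7, 56085768 to 56103403, minus strand) had 17233 and 15906 reads in mutants 1 and 3, against 15512 and 12113 in wild types 1 and 2. Scaled levels were 804 and 807 CPM in the mutants, against 691 and 609 CPM in the wild types. Both mutants lay above both wild types, but the difference did not pass the test (log2 fold change 0.31 ± 0.23, adjusted p = 0.665, 95% interval of the ratio 0.854 to 1.80). Scaled by total reads alone the log2 fold change of Csrp3 was 0.02. The median of all tested rows on that scale was -0.28, and Csrp3 stood 0.30 above it. In the authors' deposited table, not corrected for composition, the Csrp3 ratios of a mutant to a wild type ran from 0.864 to 1.19.

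Csrp1, known from smooth muscle and many other cells (chromosome 1, 137625774 to 137648806, plus strand), had 828 and 787 reads in mutants 1 and 3, against 1251 and 767 in wild types 1 and 2. Scaled levels were 38.6 and 39.9 CPM in the mutants, against 55.7 and 38.6 CPM in the wild types. The groups overlapped, since wild type 2 lay at the level of the mutants and wild type 1 alone was higher. The log2 fold change of -0.26 ± 0.24 (adjusted p = 0.723) became 0.027 without wild type 1 (adjusted p = 0.930) and -0.51 without wild type 2 (adjusted p = 0.0253), and over its alternatives the adjusted p ran from 0.0253 to 1.00. An unnamed transcript row on the opposite strand, AK188772, overlaps the Csrp1 row with 151, 124, 245 and 181 reads in mutants 1 and 3 and wild types 1 and 2 in turn.

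Csrp2, a form known from vascular smooth muscle (chromosome 10, 110357235 to 110376678, plus strand), had 415 and 329 reads in mutants 1 and 3, against 484 and 456 in wild types 1 and 2. Scaled levels were 19.4 and 16.7 CPM against 21.6 and 22.9 CPM, with both mutants below both wild types. The fitted log2 fold change was -0.30 ± 0.22 (adjusted p = 0.653). It was -0.38 without mutant 1, -0.16 without mutant 3, -0.35 without wild type 1 and -0.26 without wild type 2. Beside these genes, 0 of 7 tested smooth muscle markers were called, and none was at 0 reads in any library. By sign 4 were higher and 3 lower, with a median log2 fold change of 0.18. By an unadjusted p of 0.05 in edgeR, 0 were higher and 2 lower, beside 6.49% and 4.38% of all tested rows. The 2 were Acta2 (log2 fold change -0.75) and Myocd (-0.59). Their summed level was 209 and 218 CPM in the mutants, against 287 and 269 CPM in the wild types. Without the smooth muscle actin gene Acta2 the other 6 summed to 140.4 and 152 CPM in the mutants, against 151 and 178 CPM in the wild types, so the groups overlapped. The part of smooth muscle content in the Csrp1 and Csrp2 values was not tested, and fewer cells of a type and less RNA per cell cannot be told apart in bulk tissue. Csrp3 over Csrp2 reads stood at 41.5 and 48.3 in the mutants, against 32.0 and 26.6 in the wild types. The groups could not overlap in this ratio, since Csrp3 lay higher and Csrp2 lower in both mutants.

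In the Pdlim family all 4 members had both mutants above both wild types after TMM scaling, as 22.3% of all tested rows did, and Pdlim7 had the largest log2 fold change. By the ratios in the authors' deposited table this held for Pdlim7 alone of the 4. Mutant 3 stood below wild type 1 there in Pdlim1 (ratio 0.834), Pdlim3 (0.799) and Pdlim5 (0.840). Those ratios are not corrected for composition, and the share of all rows was not computed for them. Scaled by total reads alone, the median log2 fold change of all tested rows was -0.28. On that scale Pdlim1, Pdlim3 and Pdlim5 stood 0.36, 0.18 and 0.35 above the median. Pdlim7 encodes Enigma, a PDZ and LIM protein that binds protein kinases and the cytoskeleton (chromosome 13, 55597156 to 55614795, minus strand). Its reads numbered 1406 and 933 in mutants 1 and 3, against 677 and 593 in wild types 1 and 2. Scaled levels were 65.6 and 47.3 CPM in the mutants, against 30.1 and 29.8 CPM in the wild types. The wild types were nearly equal, while mutant 1 was 1.39 times as high as mutant 3. Between groups the log2 fold change was 0.91 ± 0.24, or 1.88-fold (unadjusted 95% interval 1.29 to 2.75), with an unadjusted p of 0.00487 and an adjusted p of 0.244. DESeq2 gave an adjusted p of 0.0875, and over 13 alternatives the adjusted p ran from 0.00493 to 1.00. Without mutant 1, the library with the raised fast skeletal muscle markers, the Pdlim7 log2 fold change was 0.69, and without mutant 3 it was 1.17. The part of those markers in the Pdlim7 value was not tested.

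Pdlim5 encodes ENH, which tethers protein kinase C to the Z-disc (chromosome 3, 141905621 to 142058582, minus strand). Its reads numbered 5532 and 3915 in mutants 1 and 3, against 3928 and 3722 in wild types 1 and 2, or 258 and 199 CPM against 175 and 187 CPM. Mutant 1 was the high library, and mutant 3 lay close to wild type 2. The log2 fold change of 0.33 ± 0.23 (adjusted p = 0.635) was 0.17 without mutant 1 and 0.55 without mutant 3. The authors' deposited table holds CPM values not corrected for composition. It gave Pdlim5 ratios above 1 for mutant 1 over the wild types, 1.30 and 1.24, and below 1 for mutant 3, 0.840 and 0.802. Pdlim7 over Pdlim5 reads stood at 0.254 and 0.238 in the mutants, against 0.172 and 0.159 in the wild types.

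Pdlim1, or CLP36, binds α-actinin on stress fibres and Z-discs (chromosome 19, 40296729 to 40346023, minus strand). Its reads numbered 1024 and 1032 in mutants 1 and 3, against 1043 and 606 in wild types 1 and 2, or 47.8 and 52.3 CPM against 46.4 and 30.5 CPM. Wild type 2 alone was low, and wild type 1 lay just under mutant 1. On the log2 scale the difference was 0.38 ± 0.25 (adjusted p = 0.628), 0.72 without wild type 1 (adjusted p = 0.00932) and 0.10 without wild type 2 (adjusted p = 0.666; range over its alternatives 0.00932 to 1.00). A row named Clim1 on the same strand covers part of the same span with 615, 541, 603 and 330 reads in mutants 1 and 3 and wild types 1 and 2 in turn, so reads of the locus can be counted under both names.

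Pdlim3, the α-actinin-associated LIM protein of skeletal and heart muscle (chromosome 8, 46970839 to 47004900, plus strand), had the smallest log2 fold change of the family. Its reads numbered 361 and 312 in mutants 1 and 3, against 329 and 281 in wild types 1 and 2, or 16.8 and 15.8 CPM against 14.6 and 14.1 CPM. The mutants lay above the wild types by a small margin. The fitted log2 fold change was 0.18 ± 0.21 (adjusted p = 0.793), and scaled by total reads alone it was -0.10, while the median of all rows moved to -0.28, so Pdlim3 stood 0.18 above that median.

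**Figure D3:**
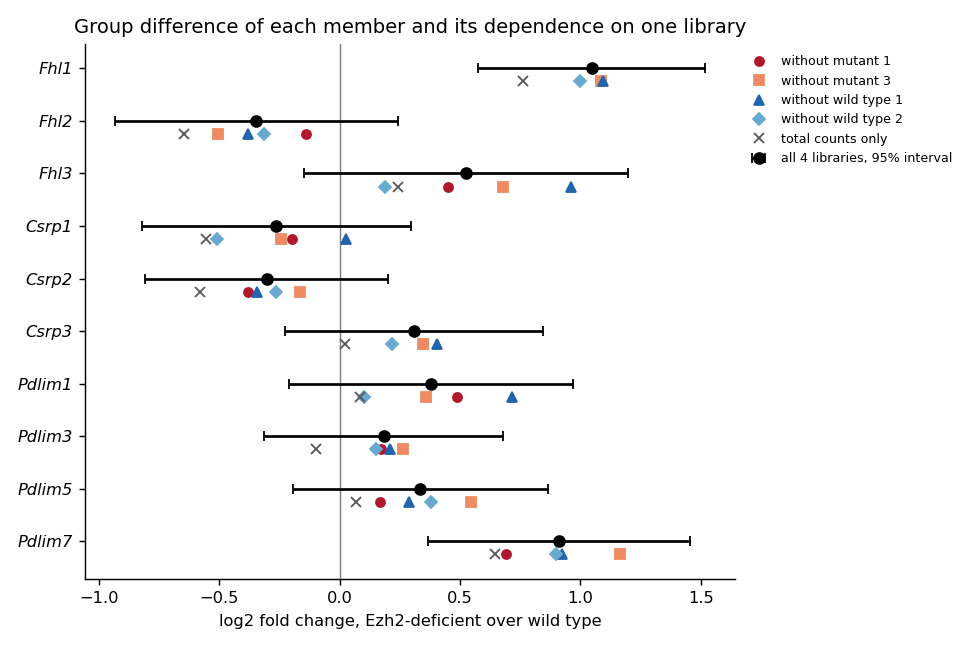
Log2 fold change of each gene, Ezh2-deficient over wild type, with black points and bars for all 4 libraries and the 95% interval from edgeR, and coloured symbols for the value without 1 library or with total-count scaling. The Fhl1 values stay between 0.76 and 1.09, while those of Csrp1 run from -0.55 to 0.027. The values 0.76 and -0.55 are with total-count scaling, where the median of all tested rows was -0.28. Relative to that median they were 1.04 and -0.27.

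Leaving out 1 wild type changed which of the 10 genes were called. Without wild type 1 the test called 4 of them, Fhl1, Fhl3, Pdlim1 and Pdlim7, all higher, against 12.2% of all tested rows. Without wild type 2 it called 3, Fhl1 and Pdlim7 higher and Csrp1 lower, against 22% of all tested rows. Without mutant 1 or without mutant 3 it called 0 of the 10, against 0.381% and 0.653% of tested rows. The spread between the wild types was wider than that between the mutants, with a median absolute log2 difference over all tested rows of 0.42 and 0.19. Among the 10 genes, 3 differed between the wild types by more than 1.4 times, Fhl3 (1.70), Pdlim1 (1.52) and Csrp1 (1.44), in each case with wild type 1 the higher. A result without 1 library assumes that the lone heart of a group varies like the others.

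**Figure D4:**
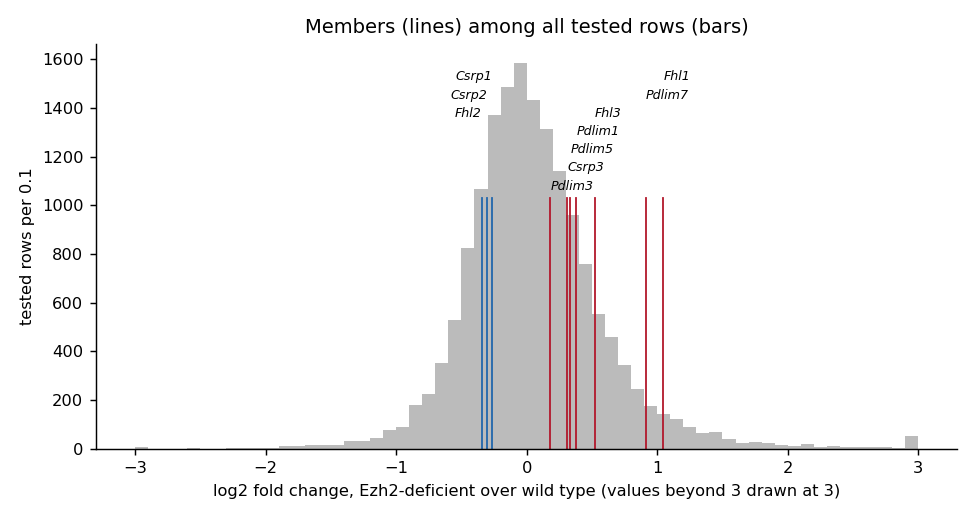
Number of tested rows per 0.1 of log2 fold change (grey bars, 16128 rows, Ezh2-deficient over wild type), with a line for each of the 10 genes, red above 0 and blue below. Fhl1 at 1.05 and Pdlim7 at 0.91 lie on the upper shoulder, and the other 8 genes lie between -0.35 and 0.52.

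Levels of different genes were compared per kb of exon, with exon lengths from a later annotation (GENCODE M21). In the wild types Csrp3 came first at 695 ± 61.5 CPM per kb (SD, n = 2) and Fhl2 second at 623 ± 22.8 CPM per kb, with no overlap between their libraries. A wide step below came Pdlim5 at 26.2 ± 1.26, Csrp1 at 24.1 ± 6.19 and Fhl1 at 23.6 ± 1.00 CPM per kb. The Csrp1 libraries overlapped those of Pdlim5 and of Fhl1, while both Pdlim5 libraries lay above both Fhl1 libraries. Then came Pdlim1 at 15.0 ± 4.39, Csrp2 at 14.0 ± 0.617, Pdlim7 at 10.1 ± 0.0744, Fhl3 at 8.88 ± 3.26 and Pdlim3 at 7.43 ± 0.187 CPM per kb. Among these, Pdlim1 and Csrp2 overlapped, as did Pdlim7 and Fhl3, and Fhl3 and Pdlim3.

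In the mutants Fhl1 came next after Csrp3 and Fhl2, at 48.8 ± 0.0541 CPM per kb, above Pdlim5 at 33.1 ± 6.11 CPM per kb in both libraries. Csrp3 was at 861 ± 1.81 and Fhl2 at 490 ± 88.0 CPM per kb. Csrp1 at 20.1 ± 0.459, Pdlim1 at 19.5 ± 1.25 and Pdlim7 at 19.1 ± 4.37 CPM per kb overlapped. Fhl3 at 12.8 ± 1.41 and Csrp2 at 11.3 ± 1.19 CPM per kb overlapped as well, and Pdlim3 was lowest at 8.44 ± 0.374 CPM per kb. Because the nuclease treatment lowers abundant transcripts, the steps between genes may understate those of the RNA.

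**Figure D5:**
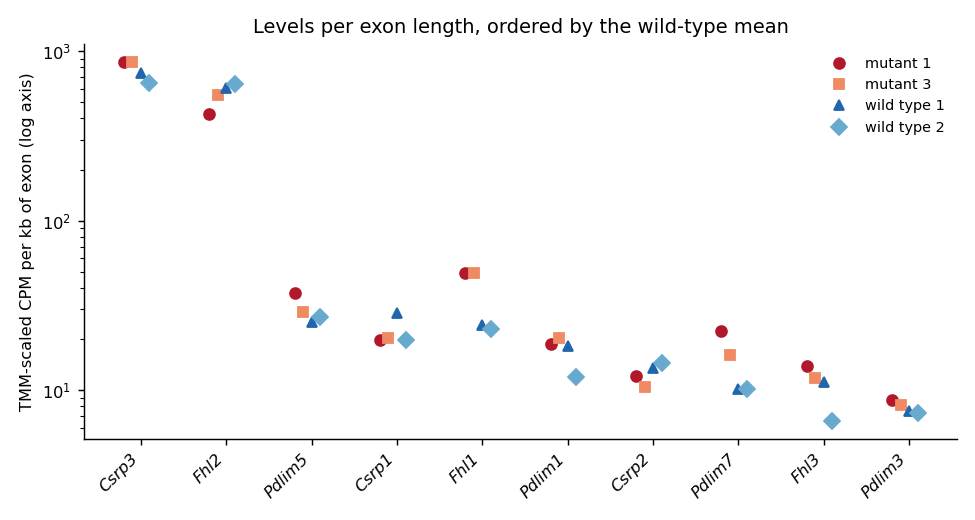
TMM-scaled CPM per kb of exon (log axis) of the 10 genes in each library, ordered by the wild-type mean. Csrp3 and Fhl2 lie between 428 and 863 CPM per kb and the other 8 genes between 6.58 and 48.8 CPM per kb.

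The other LIM-domain genes and the known partners did not pass the test either. Of 5 tested PDZ-LIM, Fhl and Crip genes outside the 10, 0 were called, 2 were higher and 0 lower by an unadjusted p of 0.05, and the median log2 fold change was 0.28. Crip1, a small LIM protein gene, stood at 152 and 114 CPM in the mutants, against 66.9 and 50.1 CPM in the wild types (adjusted p = 0.170). Pdlim2 stood at 20.2 and 11.7 CPM against 9.35 and 6.34 CPM (adjusted p = 0.344). Ldb3, the Z-disc protein Cypher and a close relative of the Pdlim family, stood at 772 and 808 CPM against 687 and 610 CPM (adjusted p = 0.691).

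Of 23 tested LIM and related genes of adhesions and actin, 0 were called, 2 were higher and 1 lower by an unadjusted p of 0.05, and the median was -0.05. Xirp2, a Xin-repeat protein of the intercalated disc, stood at 644 and 612 CPM in the mutants and at 73.5 and 264 CPM in wild type 1 and wild type 2 (adjusted p = 0.266). Trip6, a zyxin relative, stood at 9.75 and 9.69 CPM against 18.3 and 14.1 CPM (adjusted p = 0.343), and Lpp, another, at 12.6 and 13.6 CPM against 9.26 and 7.60 CPM (adjusted p = 0.409). The wild types thus differed widely in Xirp2. Of 6 tested nuclear LIM genes and cofactors, 0 were called and 0 had an unadjusted p under 0.05, with a median of 0.34. Its lowest p-values belonged to Ldb2 (adjusted p = 0.555), Ldb1 (0.616) and Lmo2 (0.638).

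Of 20 tested partners of the LIM proteins, 0 were called, 2 were higher and 1 lower by an unadjusted p of 0.05, and the median was -0.05. Tcap, the titin cap protein that binds Csrp3 at the Z-disc, stood at 1277 and 1187 CPM in the mutants, against 806 and 822 CPM in the wild types (adjusted p = 0.420). Ppp3ca, a catalytic subunit of calcineurin, stood at 24.5 and 32.7 CPM against 16.6 and 21.2 CPM (adjusted p = 0.446). Actn2, the sarcomeric α-actinin, stood at 1158 and 1212 CPM against 1257 and 811 CPM (adjusted p = 0.841). Srf stood at 59.8 and 51.1 CPM against 82.1 and 55.6 CPM (adjusted p = 0.686).

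Rows with a pattern over the 4 libraries like that of Fhl1 or Pdlim7 were sought among 6335 named rows of at least 10 CPM, by the Euclidean distance of centred log2 CPM. The nearest to Fhl1 were Ndufa4 (distance 0.104), Mrpl21 (0.125) and Atp5l (0.142), which encode mitochondrial proteins. Ndufa4 stood at 1279 and 1364 CPM in the mutants, against 631 and 643 CPM in the wild types. The nearest to Pdlim7 were C3 (distance 0.120), Igtp (0.121) and Ap4s1 (0.198), and C3 stood at 62.8, 43.2, 30.8 and 29.4 CPM in mutants 1 and 3 and wild types 1 and 2 in turn. With 4 libraries, likeness of this kind describes the libraries and is no sign of a shared role.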

How the data were processed

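Libraries were made from polyadenylated RNA and digested with a duplex-specific nuclease, per the labels' protocols. TopHat 1.2.0 and Cufflinks were used with build mm9, per the submitters' processing notes; no source used here gives the counting rule, the use of strand or the annotation. The authors' deposited table holds a whole-number read count per row and library (the input here), the authors' CPM, which equals reads over the column total, and the authors' ratio and p-value of each pair of libraries. Of 29595 rows, 7646 had no read. Start positions were counted from 0, as 13 of 13 mitochondrial genes showed, and are printed from 1.

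The fit was edgeR's quasi-likelihood model (version 4.0.16, under R 4.3.3) on counts of 4 libraries, with filterByExpr (16128 rows), TMM scaling, no covariate, and Benjamini-Hochberg adjustment over the table; an adjusted p under 0.05 is a call. It was also run on simulated counts, but with less spread between libraries than in these data, so its error rate here was not tested. SEs come from the F statistic. The members had 220 to 25835 reads per library. The p-values set a group difference against a spread between hearts that is estimated with help from all tested rows. Alternatives were DESeq2 1.42.0, limma 3.58.1 (voom), other scalings and filters, a threshold of 0.1 and leaving out each library. Members, lists and tests were chosen with earlier results of these data known. The rule for names took all 10 members, the 3 genes of smallest p per LIM or partner list (with Ldb3, Tcap, Actn2 and Srf), and the 3 rows most like each of the 2 members of smallest p; 1 gene that the rule names is not reported here. Promoter sequences are from RefSeq (GRCm38.p6). Marker lists for fibroblasts, endothelium, macrophages and atrium were also read: 0, 0, 0 and 1 (Nppa) of 7, 7, 5 and 5 tested genes were called.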

Additional observations from a re-analysis of the deposited data

How the results depend on the processing

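Of 129 values of the 10 genes under 13 alternatives, 118 kept their direction and their side of the threshold, 9 kept their direction and newly passed the threshold, and 2 changed sign. The 2 were Pdlim3 with total counts only (-0.10, on a scale where the median of all rows is -0.28) and Csrp1, whose values without 1 library ran from -0.51 to 0.027, without wild type 1. The count of called rows, 21, was 205 by DESeq2, 156 with total counts only (76 higher, 80 lower), 317 with no filter on low counts, 69 at an adjusted p under 0.1, and 3 without X, Y, mitochondrial and abundant rows. Without 1 library it ran from 63 to 3675. The count of called members, 0, was 1 by DESeq2 and 1 with no filter, Fhl1 in both, and 0 to 4 without 1 library. With total counts only, 5 members had groups that did not overlap (2 higher, 3 lower), in place of 9 (7 higher, 2 lower). The share of all tested rows was 44.8% in the main fit and was not computed with total counts only. Without 1 library the count was 9 to 10, which cannot be set beside 9, since a lone library overlaps less easily. The causes were not tested. Fhl1, being on X, has no value in the fit without X rows. No paired analysis was possible because the groups share only the replicate number 1. With 2 hearts in each group, their number limits the precision.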

Other observations

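Csrp3 and Ldb3, which encode Z-disc proteins and lie on different chromosomes, had almost equal numbers of reads in each library. Their levels were not equal, since they have 0.935 and 6.105 kb of exon. Per kb, Csrp3 stood at 695 and Ldb3 at 106 CPM in the wild types, and at 861 and 129 CPM in the mutants. Csrp3 over Ldb3 reads stood at 1.04 in mutant 1, 0.999 in mutant 3, 1.00 in wild type 1 and 1.00 in wild type 2. Over the same libraries Csrp3 over Actn2 reads ran from 0.550 to 0.751, and Csrp3 over Tcap reads from 0.630 to 0.857, with both mutants (0.630 and 0.679) below both wild types (0.857 and 0.741). These ratios were chosen after earlier values were known, and they are given without a test.

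Fgf13, the X-linked row among the 10 nearest to Fhl1 with an unadjusted p under 0.05, differed in the direction opposite to Fhl1. Its reads numbered 400 and 332 in mutants 1 and 3, against 676 and 496 in wild types 1 and 2, a log2 fold change of -0.63 with an adjusted p of 0.369. It is named because its p was the lowest of the 10 and was chosen after its values were seen.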
